A study of Mus musculus with 6 samples.

Results

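Mitochondrial ribosomal protein mRNAs were measured in the liver of aged mice with and without chromogranin A (CgA). The genes were taken by name, as every row of the gene count table whose symbol starts with Mrpl or Mrps followed by a digit, with pseudogene symbols containing -ps left out. This gave 78 of 32212 rows, and all 78 passed the filter on low counts. The rule reads the symbol alone and uses no measured value of these libraries. Mrpl symbols stand for proteins of the large subunit and Mrps symbols for the small subunit, but by their present place in the particle 51 members are large subunit proteins, 26 are small subunit proteins and Mrps36 is no longer counted as ribosomal.

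The data are 6 poly(A) RNA-seq libraries of whole liver, 1 per mouse, with 3 mice of the WT and 3 of the CgA-KO genotype. All 6 mice were males of the C57BL/6 strain, 2 yr old, on normal chow, and the labels name no agent for either genotype. CgA-KO stands for a knockout of Chga, the gene of the pro-hormone CgA, whose construction is not given in the sources used here. Chga itself had 0 counts in all 6 libraries, so liver RNA does not check the genotype. The comparison asked which liver mRNAs differ between old CgA-KO and old WT mice.

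Mitochondria carry their own ribosome. It translates the 13 mRNAs of mitochondrial DNA, which encode core subunits of the respiratory chain and of ATP synthase, and it is built on 2 rRNAs from the same DNA. All of its proteins are encoded in the nucleus, made in the cytosol and imported. Many descend from bacterial ribosomal proteins, whereas others were added in the mitochondrial lineage. Hepatocytes are rich in mitochondria. No row of the gene count table carried the mt- symbols of these mRNAs and rRNAs, so they were not analysed here.

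The 6 libraries held 10558616 to 31087453 counts, and single members had 30 to 3354 counts in a library. Levels are given as CPM (read counts scaled to a fixed total) after TMM scaling, which adjusts each library for its composition. WT replicate 2 had the TMM factor farthest from 1 (0.756, against 0.935 to 1.12 in the other libraries). It also stood apart in the members, and the main results are therefore also given without it and under library size alone. The summed level of 10 hepatocyte markers was 54334 to 101795 CPM, with overlapping genotypes. The summed level of 10 Kupffer cell markers ranged over WT libraries from 131 to 342 CPM and over CgA-KO libraries from 1430 to 2056 CPM, and 9 of the 10 genes were called higher. None of the hepatocyte and Kupffer cell markers was at 0 in any library. Of the T and NK cell markers, 5 of 9 tested were called higher, with sums of 4.13 to 16.1 CPM over WT and 49.4 to 122 CPM over CgA-KO libraries. Of the neutrophil and myeloid markers, 3 of 4 tested were called higher, with sums of 2.62 to 10.5 CPM over WT and 29.6 to 372 CPM over CgA-KO libraries, the highest in CgA-KO replicate 2, and Mpo was at 0 in every WT library. Stellate cell markers were called higher in 2 of 8, endothelial markers in 1 of 7 with 1 lower, and 0 of the B cell and cholangiocyte markers were called. The part of these cells in the Mrp values was not tested, and in whole liver fewer cells of a type and less RNA per cell cannot be told apart.

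With TMM scaling, 7 members were lower in CgA-KO liver and 0 were higher. They were Mrpl38, Mrpl18, Mrpl39, Mrpl57 and Mrpl14 of the large subunit and Mrps21 and Mrps28 of the small subunit, with fitted levels 1.65 to 2.15 times lower. The calls come from edgeR's quasi-likelihood test at an adjusted p-value under 0.05, adjusted over the 13867 genes tested. The 7 are 8.97% of the members, against 3.84% of all genes called lower and 8.6% called higher. At an unadjusted p-value under 0.05, 34 members were lower (11.9% of all genes) and 0 were higher (17.2% of all genes). DESeq2 called 14 members lower (7.15% of all genes), the 7 among them, and 0 higher (11.6%). Limma-voom called the same 7 lower and 0 higher, with 1820 genes called in either direction. The fitted value was below 0 for 74 of 78 members, whereas 50.6% of all genes were below 0. The median log2 fold change of the members was −0.48 (quartiles −0.70 and −0.28), beside −0.01 for all genes tested.

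Under library size alone no member passed the test in either direction, and 12 were lower and 0 higher at an unadjusted p-value under 0.05. The background was 1.44% called lower and 9.32% called higher, and 4.52% and 24.0% at the unadjusted threshold. This scaling moved the median of all genes from −0.01 to 0.26 and the median of the members from −0.48 to −0.17. The members thus lay below the median of all genes by 0.47 with TMM and by 0.43 with library size, on the log2 scale. With library size, 58 members were below 0 and 20 above it, against 29.4% of all genes below 0, and 16 members changed sign between the scalings. Relative to the median of all genes, 74 members were below it with TMM and 73 with library size.

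**Figure D1:**
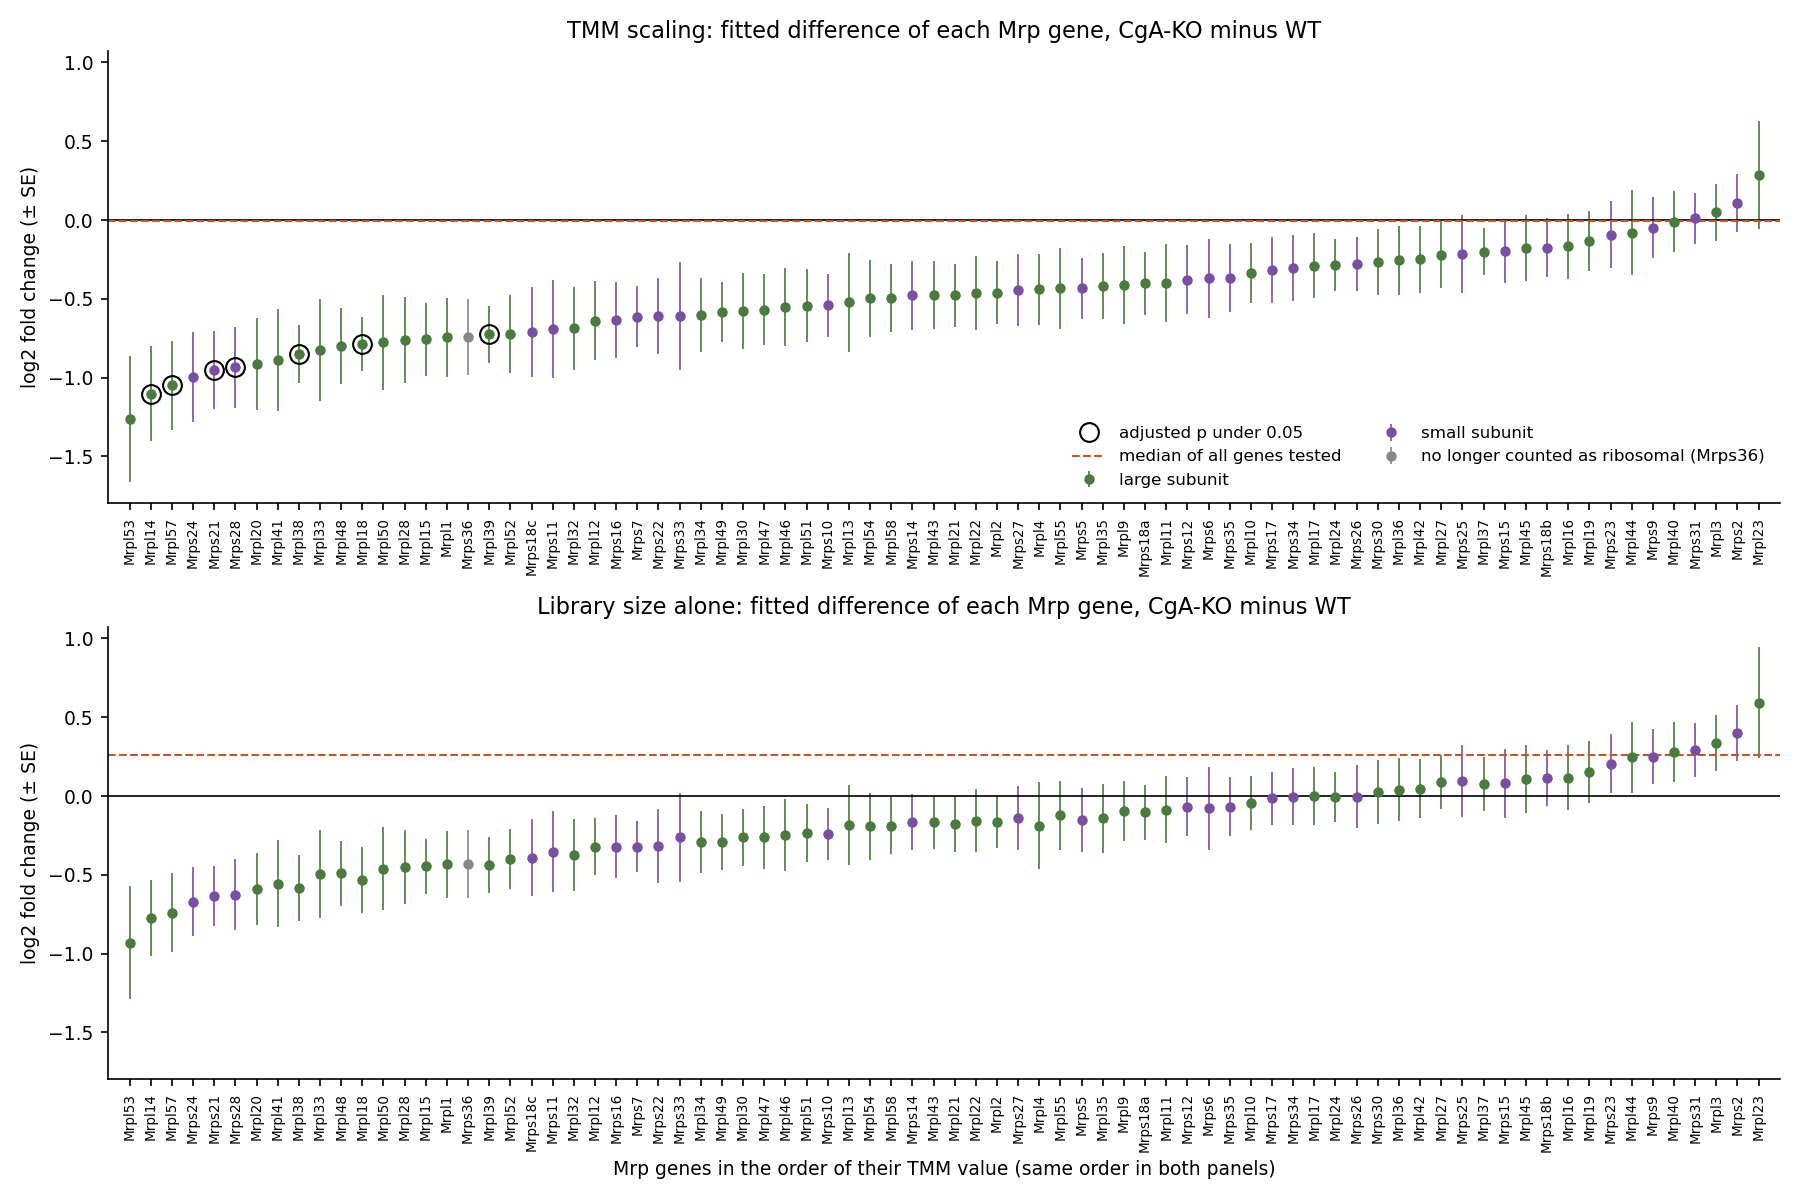
Fitted log2 fold change, CgA-KO minus WT, of each of the 78 Mrp genes with its standard error, under TMM scaling (top) and under library size alone (bottom), in the same gene order. Point colour gives the subunit, rings mark the 7 genes called lower, and the dashed line is the median of all genes tested, which sits at −0.01 in the top panel and at 0.26 in the bottom panel.

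The smallest adjusted p-values belonged to Mrpl38 and Mrpl18, whose proteins both sit in the central protuberance, the crown of the large subunit that faces the small subunit and the tRNAs. Mrpl38 (chr11:116131817-116138868, minus strand, GRCm38) is one of the proteins added in mitochondria. Its levels were 59.9, 59.1 and 61.4 CPM in the WT libraries and 29.2, 40.5 and 30.2 CPM in the CgA-KO libraries. The SD among WT mice was 1.17 CPM (n = 3), and with TMM the highest CgA-KO mouse was well below the lowest WT mouse. With library size those values nearly met, at 44.61 CPM in CgA-KO replicate 2 and 44.68 CPM in WT replicate 2. The log2 fold change was −0.85 ± 0.18 (SE), with an edgeR adjusted p of 0.0204. Mrpl18 (chr17:12911349-12916345, minus strand) has a bacterial counterpart that binds the 5S rRNA, a molecule that mammalian mitochondrial ribosomes lack. It measured 89.0, 76.8 and 73.8 CPM in the WT mice and 46.8, 42.9 and 49.0 CPM in the CgA-KO mice. Here WT replicate 1, not replicate 2, was the highest, and the genotypes were again apart. The log2 fold change was −0.79 ± 0.17 (SE, edgeR adjusted p = 0.0212). These were the 2 members still called lower when WT replicate 2 was left out, with log2 fold changes of −0.86 for Mrpl38 and −0.82 for Mrpl18.

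Mrpl39 (chr16:84717576-84735742, minus strand) is another large subunit protein with no bacterial counterpart, related in sequence to a tRNA synthetase. It had 27.4, 36.5 and 36 CPM in the WT libraries and 18.2, 22.2 and 20.1 CPM in the CgA-KO libraries, with a log2 fold change of −0.72 ± 0.18 (SE, edgeR adjusted p = 0.0338). Every CgA-KO mouse was below every WT mouse, and WT replicate 1 was the nearest to them.

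The other 4 called members shared a pattern in which WT replicate 2 was the highest library. Mrps21 (chr3:95862634-95871519, minus strand), the counterpart of a small bacterial protein at the site where mRNA leaves the small subunit, had 38.8, 71.9 and 47.0 CPM in the WT mice and 25.1, 24.7 and 31.8 CPM in the CgA-KO mice. Its log2 fold change was −0.95 ± 0.25 (SE, edgeR adjusted p = 0.0385). Mrpl57 (chr14:57826234-57829296, plus strand), a short protein added in mitochondria, had 25.9, 42.7 and 26.1 CPM in the WT libraries and 13.1, 11.8 and 20.9 CPM in the CgA-KO libraries. WT replicates 1 and 3 were nearly equal, and CgA-KO replicate 3 came closest to them. The log2 fold change of Mrpl57 was −1.05 ± 0.28 (SE, edgeR adjusted p = 0.0443).

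Mrpl14 (chr17:45686322-45698495, plus strand), a conserved protein on the face that meets the small subunit, had 56.0, 114 and 64.9 CPM in the WT mice and 37.1, 27.3 and 45.2 CPM in the CgA-KO mice. Its log2 fold change of −1.10 ± 0.30 (SE, edgeR adjusted p = 0.0461) was the lowest among the called members, an order that rested on WT replicate 2. Mrps28 (chr3:8802146-8923918, minus strand), the counterpart of bacterial S1, had 15.7, 26.2 and 18.3 CPM in the WT libraries and 7.93, 11.5 and 12.1 CPM in the CgA-KO libraries. Its log2 fold change was −0.93 ± 0.26 (SE, edgeR adjusted p = 0.0464). Without WT replicate 2 the log2 fold changes were −0.73 for Mrpl14, −0.77 for Mrpl57, −0.66 for Mrps21, −0.70 for Mrps28 and −0.66 for Mrpl39, with edgeR adjusted p-values from 0.0834 to 0.129, and Mrpl38 and Mrpl18 were then the lowest of the 7.

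In all 7 called members the genotypes did not overlap, with TMM or with library size, although the gap in Mrpl38 was 0.0737 CPM with library size. An exact permutation test of 3 mice against 3 cannot go below 0.1 and would add nothing to this. The 7 were called on the same counts, so the lack of overlap describes them and is no further support for the calls. Under library size the same 7 had log2 fold changes from −0.77 to −0.44, and their edgeR adjusted p-values ran from 0.0693 for Mrps21 to 0.151 for Mrpl39. Over the whole family, CgA-KO was below WT without overlap in 38 members (14.6% of all genes) with TMM and in 22 (6.14%) with library size. No member was above WT without overlap with TMM (19.0% of all genes), whereas 5 were with library size (29.6%), and these were Mrps9, Mrpl40, Mrps31, Mrpl3 and Mrps2.

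**Figure D2:**
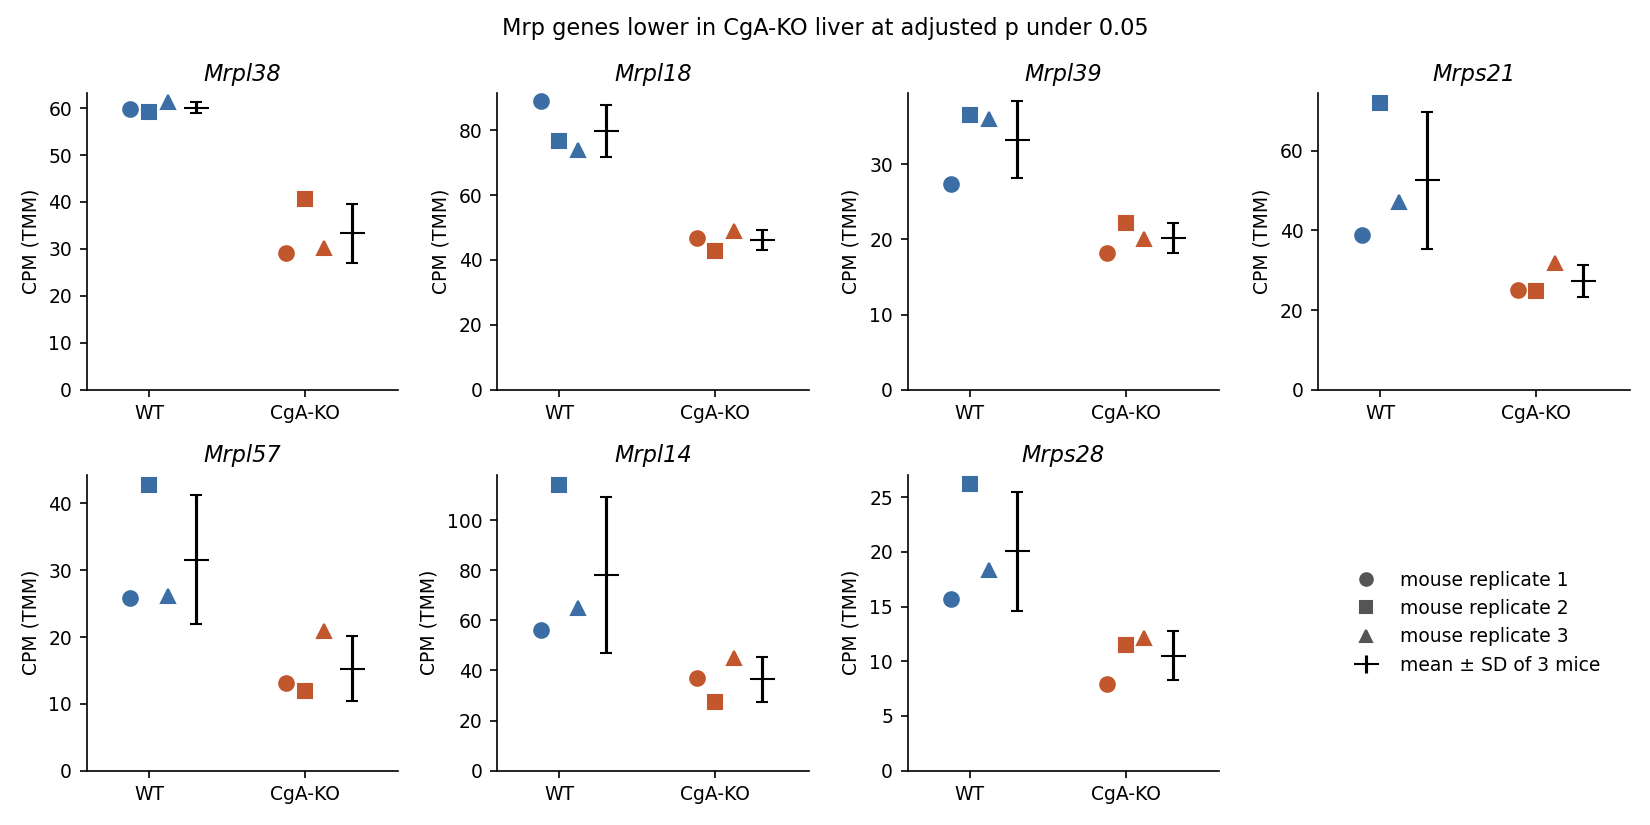
CPM with TMM scaling of the 7 Mrp genes called lower, 1 panel per gene with its own axis from 0, with a symbol for each mouse replicate and the mean ± SD of 3 mice beside each genotype. Every CgA-KO point lies below every WT point, and WT replicate 2 (square) is the highest in 5 of the 7 panels.

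Nuclear genes of mitochondrial proteins often carry binding motifs of nuclear respiratory factor 1 (NRF1) and of ETS family factors, among them GABP, near their start sites. RefSeq promoters (GRCm38.p6, 250 bases before the start and 50 from it on) were at hand for 69 of the 78 members, and of their 75 entries 73 had a GENCODE start within 100 bases. The NRF1 letters GCGCNTGCGC, on either strand, were in 13 of the 69 (18.8%), in 5.19% of all 27025 genes with an entry and in 10.6% of the 11013 tested ones. The ETS letters CCGGAAG were in 26 members (37.7%), in 9.93% of all and in 18.8% of the tested genes. Either of them was present in 35 members (50.7%, against 27.0% of tested genes) and both in 4, and no ETS match shared a base with an NRF1 match. The TATA letters TATAAA were in 5 members (7.25%, against 9.87% of tested genes). Such a match describes letters in a window and is not a measured site.

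All 5 called members with an entry (Mrpl14, Mrpl18, Mrpl39, Mrpl57 and Mrps21) held the NRF1 or the ETS letters, and so did members that hardly differed between genotypes. The 130 bases before the start are shown for Mrpl57 (chr14:57826109-57826238, plus strand), Mrps21 (chr3:95871515-95871644, minus strand) and Mrpl39 (chr16:84735245-84735374, minus strand), which were called lower and carry the NRF1 letters there. Mrpl53 (chr6:83108978-83109107, plus strand) is shown for its pair of ETS matches and Mrpl44 (chr1:79775888-79776017, plus strand) as a member with the NRF1 letters whose genotypes overlapped. Capitals mark the matches, and each line runs 5′ to 3′ up to the base before the start.
Mrpl57: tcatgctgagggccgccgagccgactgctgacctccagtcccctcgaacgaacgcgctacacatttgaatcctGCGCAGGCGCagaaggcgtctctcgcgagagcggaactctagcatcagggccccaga
Mrps21: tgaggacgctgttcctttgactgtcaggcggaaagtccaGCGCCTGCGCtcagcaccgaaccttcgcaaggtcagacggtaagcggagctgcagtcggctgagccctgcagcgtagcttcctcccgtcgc
Mrpl39: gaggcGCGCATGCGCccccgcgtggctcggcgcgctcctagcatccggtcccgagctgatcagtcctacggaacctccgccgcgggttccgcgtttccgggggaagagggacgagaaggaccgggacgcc
Mrpl53: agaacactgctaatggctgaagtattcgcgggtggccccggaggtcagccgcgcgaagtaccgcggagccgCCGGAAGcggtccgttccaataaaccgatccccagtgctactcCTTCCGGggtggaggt
Mrpl44: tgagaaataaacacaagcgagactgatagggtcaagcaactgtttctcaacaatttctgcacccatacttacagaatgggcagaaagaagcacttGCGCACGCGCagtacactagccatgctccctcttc
The NRF1 match began 57 bases before the start in Mrpl57, 91 in Mrps21, 125 in Mrpl39 and 35 in Mrpl44. The ETS matches of Mrpl53 began 59 and 16 bases before the start. Mrpl44, a large subunit protein related in sequence to RNase III, had 11, 21.2 and 11.8 CPM in the WT mice and 12.6, 15.2 and 13.9 CPM in the CgA-KO mice, a log2 fold change of −0.08 ± 0.27 (SE). Its value was 0.25 with library size and 0.28 without WT replicate 2. The median log2 fold change was −0.54 over the members with the NRF1 or ETS letters and −0.43 over those without, a description with no test.

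With all 6 libraries, the lowest fitted value belonged to a member that did not pass the test. Mrpl53, a large subunit protein with no bacterial counterpart, had 42.7, 88.8 and 42.3 CPM in the WT libraries and 25.8, 12.7 and 34.0 CPM in the CgA-KO libraries. Its log2 fold change was −1.26 ± 0.40 (SE), and its edgeR adjusted p was 0.0718. The SD among WT mice was 26.8 CPM and that among CgA-KO mice 10.7 CPM (n = 3 each). Mrps24, the counterpart of the bacterial protein that lines the channel where mRNA enters, had 40.8, 83.8 and 46.8 CPM in the WT mice and 26.5, 24.7 and 34.8 CPM in the CgA-KO mice (log2 fold change −0.998 ± 0.286, SE, edgeR adjusted p = 0.0534). Exons of both genes overlap exons of another gene. The genotypes did not overlap in either gene. Without WT replicate 2 the log2 fold change was −0.82 for Mrpl53, above the −0.86 of Mrpl38, and −0.62 for Mrps24. With all libraries Mrps24 lay just outside the threshold of the test, and Mrpl14 and Mrps28 just inside it.

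At the other end, 4 members had fitted values above 0, and none of these passed the test. Mrpl23, an exit tunnel protein in its bacterial form, was the least abundant member, with 2.68, 3.66 and 2.58 CPM in the WT libraries and 4.64, 2.47 and 3.85 CPM in the CgA-KO libraries (log2 fold change 0.29 ± 0.34, SE). Its reads could be shared with the pseudogene Mrpl23-ps1, which had 13.9 to 32.0 CPM, so the level of Mrpl23 is uncertain. Mrps2, a conserved small subunit protein, had 24.5, 32.9 and 28.0 CPM in the WT mice and 28.6, 35.9 and 27.5 CPM in the CgA-KO mice (0.11 ± 0.19, SE). The genotypes overlapped in both genes.

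Mrpl3, a conserved protein that reaches towards the catalytic centre, had 18.8, 24.1 and 20.6 CPM in the WT libraries and 20.7, 19.99 and 25.1 CPM in the CgA-KO libraries (log2 fold change 0.05 ± 0.18, SE). Mrps31, a small subunit protein added in mitochondria, had 19.9, 23.8 and 21.1 CPM in the WT mice and 21, 22.1 and 22.2 CPM in the CgA-KO mice (0.01 ± 0.16, SE). Mrpl40 of the central protuberance had 13.6, 18 and 14.4 CPM in the WT libraries and 13.4, 16.4 and 15.9 CPM in the CgA-KO libraries (−0.01 ± 0.19, SE). The values of these 3 were near 0 with TMM and between 0.28 and 0.34 with library size, where the median of all genes was 0.26.

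By subunit, 5 of 51 large subunit members (9.80%) and 2 of 26 small subunit members (7.69%) were called lower. Their median log2 fold changes were −0.50 and −0.41. Of the 47 members with a bacterial counterpart 4 were called lower (8.51%, median −0.46), and of the 30 added in mitochondria 3 were (10%, median −0.49). Over the whole family the share called lower was 8.97%, and over all genes it was 3.84%. No difference between these classes was tested. Mrps36, now known as a subunit of the 2-oxoglutarate dehydrogenase complex, had a log2 fold change of −0.74 ± 0.24 (SE, edgeR adjusted p = 0.0782).

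Grouped by place in the particle, 26 members with well-known positions were described, a grouping made after their values had been seen. Over the whole family, 74 of 78 members were below 0, with a median of −0.48. All 8 members of the central protuberance had values below 0, with a median of −0.52, but they ranged from −0.85 for Mrpl38 to −0.01 for Mrpl40. Among them Mrpl48 was at −0.80 and Mrpl46 at −0.55, and Mrpl58, a peptidyl-tRNA hydrolase built into the ribosome, was at −0.50. The 4 members around the mRNA exit (Mrps7, Mrps11, Mrps18c and Mrps21) lay between −0.95 and −0.61. Of 6 members at the tunnel through which the new peptide leaves (Mrpl17, Mrpl22, Mrpl23, Mrpl24, Mrpl45 and Mrpl47), 5 were below 0. Their median was −0.29. The 3 members of the stalk that recruits translation factors lay between −0.64 for Mrpl12 and −0.33 for Mrpl10. In the core of the large subunit, Mrpl2 was at −0.46, Mrpl4 at −0.44 and Mrpl3 at 0.05. At the mRNA entry, Mrps24 was at −0.998 and Mrps5 at −0.43. These values are log2 fold changes with TMM, and of these members only Mrpl38, Mrpl18 and Mrps21 were called.

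The paralogs Mrps18a, Mrps18b and Mrps18c descend from one bacterial protein, and the form encoded by Mrps18a sits in the large subunit. Mrps18a had 20.9, 30.1 and 21.8 CPM in the WT mice and 16.3, 18.8 and 20.1 CPM in the CgA-KO mice (log2 fold change −0.40 ± 0.20, SE). Mrps18b had 34.5, 43.8 and 34.6 CPM in the WT libraries and 28.7, 39.3 and 32.1 CPM in the CgA-KO libraries (−0.17 ± 0.19, SE). Mrps18c had 25.6, 45.8 and 25.5 CPM in the WT mice and 17.7, 15.7 and 26 CPM in the CgA-KO mice (−0.71 ± 0.29, SE). None of the 3 passed the test, and only in Mrps18a were the genotypes apart.

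Most of these proteins are present in a single copy per ribosome, but their mRNAs were not at equal levels. Per kilobase of transcript and averaged over all libraries, Mrps21 (89.3 CPM per kb), Mrpl14 (89.0) and Mrpl30 (84.6) were the highest and Mrps25 (1.31), Mrpl19 (2.87) and Mrpl47 (4.03) the lowest, with a median member at 18.1. The annotated transcripts used for this were 446.5 to 662 nucleotides long in the 3 highest and 3364 to 6073 in the 3 lowest. Their coding lengths were 261 to 480 and 513 to 876 nucleotides. A level per kb thus depends on the annotated length, and the part of that length in this order was not tested. The same 3 were the highest within each genotype, but in another order. In WT Mrpl14 (121 CPM per kb) was followed by Mrps21 (118) and Mrpl30 (101), and in CgA-KO Mrpl30 (67.9) was followed by Mrps21 (60.9) and Mrpl14 (56.6). Mrpl30, a conserved large subunit protein, had a log2 fold change of −0.58 ± 0.24 (SE), Mrps25 of −0.22 ± 0.25, Mrpl19 of −0.13 ± 0.19 and Mrpl47 of −0.57 ± 0.23, and these 4 did not pass the test. The order of members by level gave Spearman's rho of 0.828 to 0.973 between libraries of one genotype and 0.687 to 0.945 between genotypes. Pairs with CgA-KO replicate 2 were the lowest, at 0.687 to 0.875, and pairs without it were at 0.885 to 0.973. These coefficients are over 78 genes that share a library and are given without a test.

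Summed over the family, Mrp mRNA took 0.235%, 0.260% and 0.226% of all counts in WT and 0.193%, 0.197% and 0.222% in CgA-KO. The lowest WT library was thus just above the highest CgA-KO library. With TMM the summed levels were 2218, 3440 and 2413 CPM in WT (mean 2690 ± 657, SD, n = 3) and 1719, 1788 and 2052 CPM in CgA-KO (mean 1853 ± 176, SD, n = 3). The WT mean was 1.45 times the CgA-KO mean, or 1.25 times without WT replicate 2. With library size it was 1.18 times, or 1.13 times without that replicate.

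**Figure D3:**
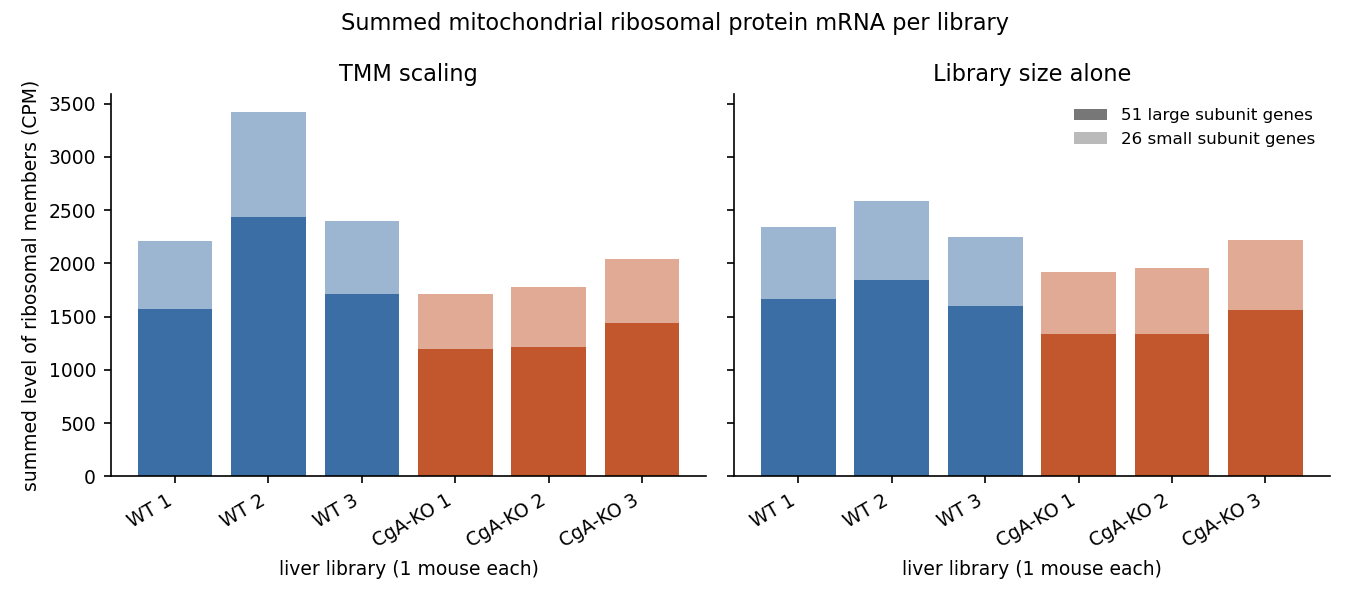
Summed CPM of the 51 large subunit genes (dark) and the 26 small subunit genes (light) in each library, WT in blue and CgA-KO in orange, under TMM scaling (left) and library size alone (right), with Mrps36 left out. With TMM, WT replicate 2 stands above all other libraries, and under both scalings the full height of each CgA-KO bar is below that of each WT bar. With library size the light part of CgA-KO replicate 3 (653 CPM) is larger than that of WT replicate 3 (646 CPM).

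WT replicate 2 was the highest library for 71 of 78 members with TMM and for 41 with library size. CgA-KO replicate 1 was the lowest for 41 members and CgA-KO replicate 2 for 28 with TMM. The coefficient of variation of a member among WT mice had a median of 25.4%, against 6.77% between WT replicates 1 and 3 alone and 14.6% among CgA-KO mice. Without WT replicate 2, the median of the members was −0.26, with 69 below 0, and 2 (Mrpl18 and Mrpl38) were called lower. Leaving out WT replicate 1 gave 12 lower calls, CgA-KO replicate 2 left Mrpl38 and CgA-KO replicate 3 left Mrpl57. Leaving out WT replicate 3 or CgA-KO replicate 1 left 0. Genes called in either direction were 2126 of 14262 without WT replicate 1, 841 of 14155 without 2 and 394 of 14111 without 3. Without CgA-KO replicates 1, 2 and 3 they were 744 of 14197, 976 of 13974 and 1249 of 14270. The share of all genes called lower was not computed for these fits, so the member counts have no background by direction. In each of these 6 fits the median of the members stayed below 0, between −0.57 and −0.26.

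**Figure D4:**
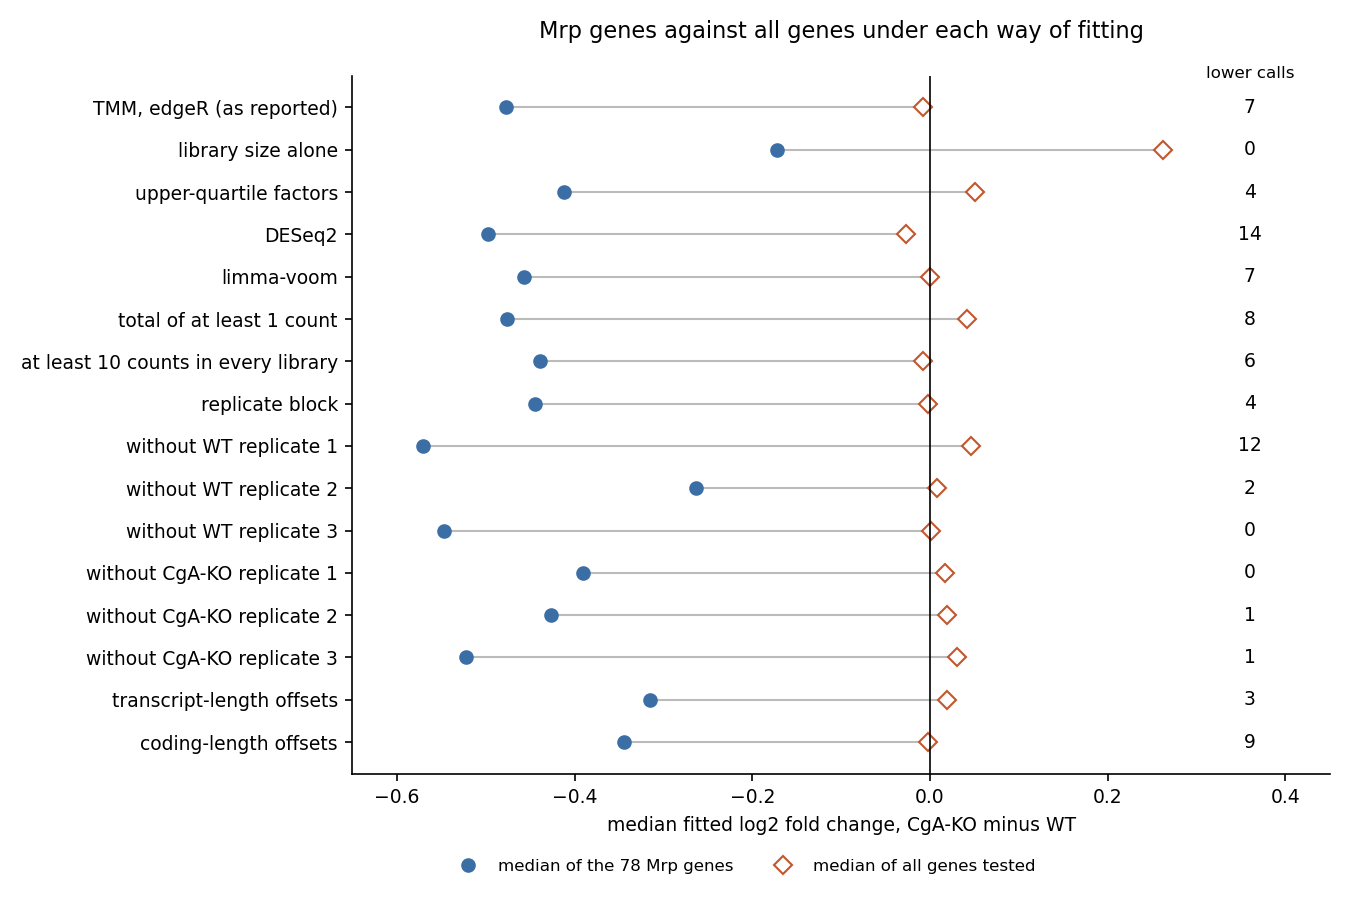
Median fitted log2 fold change, CgA-KO minus WT, of the 78 Mrp genes (filled circles) and of all genes tested (open diamonds) under each way of fitting, with the number of Mrp genes called lower at the right. The circle lies left of its diamond in every row, nearest in the fit without WT replicate 2, and the number of calls runs from 0 to 14.

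Members with short coding sequences had lower fitted values than those with long ones. Over the 26 shortest (195 to 477 nucleotides) the median log2 fold change was −0.60, over the middle 26 (480 to 753 nucleotides) −0.49 and over the 26 longest (756 to 1326 nucleotides) −0.39. Other genes of the same coding lengths followed the same order, with medians of −0.28 over 930 genes, −0.08 over 1576 and −0.01 over 3615. The members lay below these by 0.33, 0.41 and 0.38. In other genes of the shortest class the median distance from the mean of the libraries (log2) was 0.45 in WT replicate 2, −0.20 in CgA-KO replicates 1 and 2, and between −0.09 and 0.01 in the remaining libraries. In the longest class WT replicate 2 was at 0.42 in the members and at 0.03 in other genes. The part of length and of these libraries in the Mrp values was not tested separately.

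Offsets that remove the trend with coding length from each library, an alternative chosen after the data had been seen, gave 9 lower calls (4.69% of all genes) and 0 higher (9.29%). These were the 7 members above with Mrps24 and Mrpl48, and the median was −0.34. Offsets by transcript length, chosen likewise, left Mrpl39, Mrpl38 and Mrpl57 (3.99% of all genes called lower) and 0 higher members (8.84%), with a median of −0.32. Spearman's rho between coding length and log2 fold change was 0.36 over the 78 members and −0.02 after the coding-length offsets. With transcript length it was 0.22, and −0.37 after the transcript-length offsets, so that the trend turned. These are descriptions across genes that share their libraries.

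**Figure D5:**
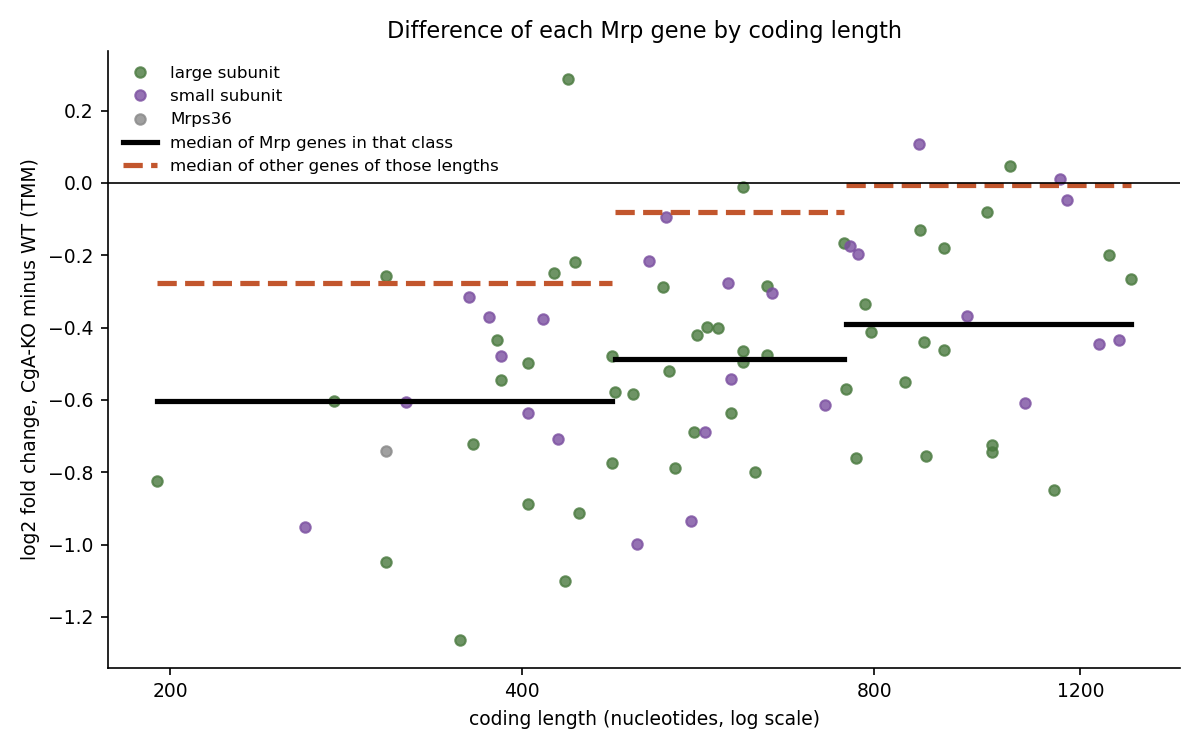
TMM log2 fold change, CgA-KO minus WT, of each Mrp gene against its coding length on a log axis, coloured by subunit. Solid bars are the medians of the Mrp genes in each of the 3 classes of coding length (−0.60, −0.49 and −0.39) and dashed bars the medians of other genes of those lengths (−0.28, −0.08 and −0.01).

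Exons of 33 members overlap exons of another gene, on the opposite strand in 28 of them. Among the called members Mrpl14 overlaps Tmem63b and Mrpl18 overlaps Tcp1, and whether the libraries kept strand is not stated, so reads of such pairs may not be told apart. The 45 members without overlap had a median of −0.46, and 5 of them were called lower (11.1%, against 3.84% of all genes). None of the 78 genes lies on chromosome 12, which carries Chga.

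Other genes of mitochondrial translation were counted from lists set by function. The 5 mitochondrial ribosome proteins whose symbols do not start with Mrp (Dap3, Ptcd3, Aurkaip1, Chchd1 and Gadd45gip1) all had values below 0. Their median was −0.45, and 0 were called. Of the 5, 3 were lower at an unadjusted p-value under 0.05 (11.9% of all genes). Chchd1, the lowest of them, had 35.4, 79.5 and 41.2 CPM in the WT libraries and 26.9, 14.4 and 30.3 CPM in the CgA-KO libraries (log2 fold change −1.13 ± 0.36, SE, edgeR adjusted p = 0.0750). Of 27 assembly factors 1 was called lower (3.70%, against 3.84% of all genes), Nsun4, an rRNA methyltransferase that helps to join the subunits. It had 15.8, 19.9 and 21 CPM in the WT mice and 9.93, 11.9 and 12.3 CPM in the CgA-KO mice (−0.73 ± 0.20, SE, edgeR adjusted p = 0.0439). The median of the assembly factors was −0.17. At an unadjusted p-value under 0.05, 5 were lower (18.5%, against 11.9% of all genes), Noa1, Malsu1, Mterf3, Nsun4 and Rpusd3. At that threshold 1 was higher (17.2% of all genes), the RNA helicase Dhx30 (log2 fold change 0.38 ± 0.16, SE, edgeR adjusted p = 0.168).

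A list of 20 genes of mitochondrial tRNA charging held the tRNA synthetases and the amidotransferase subunits Qrsl1, Gatb and Gatc. Of these 20, 1 was called lower (5%, against 3.84% of all genes), the tyrosyl-tRNA synthetase Yars2. It had 15.6, 18.5 and 15.8 CPM in the WT libraries and 10.1, 9.88 and 10.4 CPM in the CgA-KO libraries (log2 fold change −0.72 ± 0.18, SE, edgeR adjusted p = 0.0353). The median of the 20 was −0.14. Of them 4 were lower and 0 higher at an unadjusted p-value under 0.05 (11.9% and 17.2% of all genes). Neither Nsun4 nor Yars2 was called under library size alone, nor when any library other than WT replicate 1 was left out. None was called of 16 mitochondrial translation factors (median −0.30) or of 10 regulators of mitochondrial biogenesis (median −0.07). The same held for 15 genes of mitochondrial DNA copying, transcription and RNA processing or decay (median −0.21). At an unadjusted p-value under 0.05, 5 translation factors, 1 of these 15 genes and 1 biogenesis regulator were lower (11.9% of all genes). At that threshold 1 biogenesis regulator was higher (17.2% of all genes), the coactivator gene Ppargc1a, with 10.2, 7.78 and 13.4 CPM in the WT mice and 15.1, 17.7 and 14.0 CPM in the CgA-KO mice (log2 fold change 0.58 ± 0.24, SE, edgeR adjusted p = 0.149). Esrra, the lower regulator, had 36.3, 41.7 and 46.2 CPM in the WT and 29.8, 28.0 and 28.0 CPM in the CgA-KO mice. This was a log2 fold change of −0.54 ± 0.16 (SE, edgeR adjusted p = 0.0644). Neither in Ppargc1a nor in Esrra did the genotypes overlap. Of the biogenesis regulators 5 were above 0 and 5 below. No difference between the lists was tested.

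The other ribosome of the cell and the nuclear subunits of respiratory complex I served for comparison. Of 84 cytosolic ribosomal protein genes, which make the ribosome outside mitochondria, 79 were tested and 2, Rps7 and Rpl30, were called lower (2.53%, against 3.84% of all genes), with a median of −0.55 with TMM and −0.22 with library size. Rps7 was also called lower with library size (1.44% of all genes), where no Mrp member was, but its reads could be shared with pseudogenes such as Rps7-ps3. Of 38 nuclear complex I subunits, whose partners are made by the mitochondrial ribosome, 1, Ndufb2, was called lower (2.63%) and all 38 were below 0, with medians of −0.60 and −0.29. The medians of the members were −0.48 and −0.17. At an unadjusted p-value under 0.05, 21 complex I subunits (55.3%) and 13 cytosolic genes (16.5%) were lower with TMM. The members were at 43.6% and all genes at 11.9%. With library size the shares were 21.1%, 3.80%, 15.4% and 4.52%, in that order. CgA-KO was below WT without overlap in 42.1%, 20.3%, 48.7% and 14.6% with TMM. With library size these were 31.6%, 10.1%, 28.2% and 6.14%. No test set the families apart.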

How the data were processed

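Poly(A) libraries were made from whole liver, with 3 mice per genotype. The authors quantified reads at the transcript level with Salmon 1.4.0 against GRCm38 and deposited gene counts, as whole numbers that are not scaled. How transcripts were brought to genes and whether strand was kept are not given in the sources used here. All 6 columns were mapped by title, and 0 were left without a sample.

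The counts were fitted with edgeR 4.0.16 in R 4.3.3 (filterByExpr with a minimum count of 10, TMM, robust quasi-likelihood fit, two-sided test of genotype, Benjamini-Hochberg adjustment over 13867 genes, calls at an adjusted p-value under 0.05). The fit was repeated with library size alone, upper-quartile factors, DESeq2 1.42.0, limma-voom 3.58.1, other filters, a replicate block and 1 library left out. The scripts were tested on simulated data. Transcript and coding lengths, exon overlaps and coordinates came from GENCODE (GRCm38).

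The gene family, lists, tests and alternatives were chosen with earlier results of these data known. Members were named if called, if among the 5 lowest or 5 highest fitted values, if among the 3 highest or 3 lowest levels per kb, as the Mrps18 paralogs, or if their call differed between scalings, and in each list the called gene with the smallest p-value. Chchd1, Dhx30, Noa1, Malsu1, Mterf3, Rpusd3, Ppargc1a, Esrra, Rps7, Rpl30, Ndufb2 and Mrpl44 were named after their values had been seen. So were the members grouped by place in the particle. Samples of one genotype came from separate mice.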

Additional observations from a re-analysis of the deposited data

How the results depend on the processing

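The count of members called lower (7) changed by over 1.5 times under most choices tried. It was 0 under library size alone, 4 with upper-quartile factors, 14 with DESeq2, 3 with transcript-length offsets and 0 at an adjusted p-value under 0.01, and ranged from 0 to 12 when 1 library was left out, with 2 members left without WT replicate 2. Limma-voom, both other filters and coding-length offsets gave 6 to 9. The share of all genes called lower was not computed for upper-quartile factors, limma-voom, the other filters, the replicate block or the stricter threshold. These member counts thus have no background by direction. The count of members called higher was 0 throughout. The median of the members was below 0 in every fit, and it moved by more than 1 SD among WT mice (0.293, WT replicate 2 included) only under library size, to −0.17. Without WT replicate 2 it was −0.26, a shift above the SD among CgA-KO mice (0.171). Leaving out libraries under library size, an alternative added after seeing the data, gave 0 calls each time and medians from −0.23 to −0.11. Deviations of same-numbered mice correlated at 0.199, 0.0127 and −0.0659, and those of differently numbered mice at −0.264 to 0.234. With 3 mice per genotype this cannot decide whether replicate numbers pair the mice. A replicate block gave 4 members and 1 gene of the lists called. The cause of these shifts was not tested.

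All genes called, in either direction, numbered 1726, against 2601 with DESeq2, 360 at the stricter threshold and 394 to 2126 with 1 library left out. They were 1654 with upper-quartile factors, 1820 with limma-voom and 1498 with a replicate block. A total of at least 1 count gave 1620, and at least 10 counts in every library gave 1381. The 2 calls in the lists of mitochondrial translation became 0 under library size, 1 with upper-quartile factors, 7 with DESeq2, 0 with a total of at least 1 count, 1 with at least 10 counts in every library, 0 at the stricter threshold, 4 with coding-length offsets and 0 to 3 with 1 library left out. Members near 0 changed sign. Mrpl40 rose above 0 under library size (0.28), upper-quartile factors (0.0511), at least 10 counts in every library (0.0264), transcript-length offsets (0.16) and coding-length offsets (0.0974), and lay between −0.063 and 0.12 with 1 library left out, above 0 without WT replicate 2 or CgA-KO replicate 1. Under library size Mrps25 was at 0.0938, Mrpl19 at 0.15 and Mrps18b at 0.11, and with transcript-length offsets Mrps18b was at 0.061 and Mrpl3 at −0.0024. With 1 library left out Mrps25 ranged from −0.31 to 0.0309, Mrpl3 from −0.0299 to 0.15 and Mrps31 from −0.0117 to 0.0863, and Mrps31 was at −0.0085 with DESeq2. Mrpl44 was above 0 under library size (0.25), with transcript-length offsets (0.0662) and without WT replicate 2 (0.28) or CgA-KO replicate 1 (0.0253). With 3 mice per genotype, the median SE of a member was 0.22 on the log2 scale.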
